A study of Homo sapiens with 12 samples.

Results

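The genes described are 9 stress regulators: the basic leucine zipper (bZIP) factors ATF4, ATF5, CEBPA, CEBPB, CEBPD, CEBPG and DDIT3, the pseudokinase TRIB3 and the phosphatase subunit PPP1R15A. They were taken by name, and they and the gene lists counted below were chosen with earlier results of these data known. Each probe set whose platform annotation held 1 symbol, and that symbol a member, was used. This gave 9 of 19775 genes and 16 of 54675 probe sets: 4 for ATF5, 2 each for CEBPD, CEBPG, TRIB3 and PPP1R15A, and 1 each for ATF4, CEBPA, CEBPB and DDIT3. The arrays were Affymetrix human U133 Plus 2.0, 12 in all, from KOPT-K1 and HPB-ALL, established human T-cell acute lymphoblastic leukaemia (T-ALL) lines. The 4 groups, of 3 cultures each, were KOPT-K1 with SAHM1 at 20 µM, KOPT-K1 with DMSO, HPB-ALL with SAHM1 at 20 µM and HPB-ALL with DMSO, all for 24 hours. SAHM1 is a hydrocarbon-stapled peptide derived from mastermind-like, the co-activator of the NOTCH transcription complex, and DMSO is its vehicle. The groups used here hold no control peptide, so a response to SAHM1 cannot be told apart from a response to a peptide of this kind. The deposited values divide each array by the DMSO average of its own line, so levels are lost: the T-cell identity of the lines could not be checked against markers, and expression in DMSO could not be compared between lines or between genes. Cultures of 1 experiment are the replicates, and p-values measure the spread between them.

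The integrated stress response starts with kinases that phosphorylate the translation factor eIF2α. General translation then slows, while the mRNAs of ATF4 and ATF5 are translated more. ATF4 is a bZIP activator of genes for amino acid synthesis, amino acid import and tRNA charging, and it pairs with C/EBP factors, of which CEBPB and CEBPG are frequent partners. DDIT3, also called CHOP, is a C/EBP-family factor and a target of ATF4 that is linked to cell death under prolonged stress. TRIB3 is a pseudokinase induced by ATF4 and DDIT3 that binds ATF4 and can restrain its activity. PPP1R15A, also called GADD34, brings protein phosphatase 1 to eIF2α and so ends the response. CEBPA is best known as a factor of granulocyte differentiation and CEBPD as an acute-phase factor. mRNA on an array shows neither the translation of ATF4 nor the phosphorylation of eIF2α.

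Some of these genes hold letters known from stress signalling near their start sites, and the promoters of 4 of them are shown for that reason. Promoter windows of 250 bases before to 50 bases after the start came from RefSeq (GRCh38.p14), where 8 members matched by symbol with 16 windows. Both strands were searched for 4 motifs: the core of the C/EBP-ATF response element (TGATGNAA), the cAMP response element (TGACGNCA), the ER stress element (its last base left out) and the E-box (CACGTG). None of the 4 is contained in another. The 120 bases before 1 start of each of ATF4 (chr22:39520439-39520558, plus strand), CEBPG (chr19:33373993-33374112, plus strand), DDIT3 (chr12:57520518-57520637, minus strand) and PPP1R15A (chr19:48872301-48872420, plus strand) are given 5′ to 3′ with the motif in capitals.
ATF4: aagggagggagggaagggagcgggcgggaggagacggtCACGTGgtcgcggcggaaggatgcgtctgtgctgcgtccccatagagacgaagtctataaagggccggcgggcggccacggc
CEBPG: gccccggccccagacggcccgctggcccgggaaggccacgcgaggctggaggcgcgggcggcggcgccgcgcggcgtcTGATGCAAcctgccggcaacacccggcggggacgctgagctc
DDIT3: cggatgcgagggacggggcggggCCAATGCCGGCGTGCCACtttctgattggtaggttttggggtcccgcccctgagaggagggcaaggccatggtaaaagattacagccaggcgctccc
PPP1R15A: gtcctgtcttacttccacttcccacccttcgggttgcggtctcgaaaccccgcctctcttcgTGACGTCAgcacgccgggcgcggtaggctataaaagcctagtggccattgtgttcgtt
The ATF4 window held the E-box, the CEBPG window the C/EBP-ATF core, the DDIT3 window the ER stress element and the PPP1R15A window the cAMP response element. One ATF5 window, not shown, held the cAMP response element as well, so 5 of the 8 matched members had a motif, in 7 of the 16 windows. CEBPA, CEBPB and TRIB3 had none of the 4 motifs in any of their windows, which says only that these letters are not there. Over 35116 RefSeq windows of the same length, 3.62% held the C/EBP-ATF core, 3.51% the cAMP response element, 0.316% the ER stress element and 7.26% the E-box. A match is a description of these letters and not a site of binding.

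Array controls moved with treatment in places. The 18S ribosomal RNA probe sets averaged log2 ratios of -0.39 to -0.14 on KOPT-K1 SAHM1 arrays and -0.17 to 0.13 on KOPT-K1 DMSO arrays, but 1.35 to 1.89 on HPB-ALL SAHM1 arrays and 1.05, -1.01 and -1.65 on HPB-ALL DMSO arrays. The hybridization spikes averaged 0.60 to 1.05 on KOPT-K1 SAHM1 arrays and -0.02 to 0.01 on KOPT-K1 DMSO arrays, and -0.71 to -0.31 on HPB-ALL SAHM1 arrays and -0.48 to 0.60 on HPB-ALL DMSO arrays. Array medians over all probe sets lay between -0.02 and 0.003 on the log2 scale. Of 13 NOTCH target genes, 8 fell and 1 rose in KOPT-K1, where 13.2% of all genes fell and 5.85% rose. In HPB-ALL 6 fell and 0 rose, where 4.38% of all fell and 4.96% rose. Differences below are log2 SAHM1 minus DMSO ± the standard error from limma, with 3 arrays per group, and a gene is said to have risen or fallen where the Benjamini-Hochberg adjusted p over all genes was under 0.05.

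In KOPT-K1, 6 of the 9 regulators fell and 0 rose: ATF4, ATF5, CEBPB, CEBPG, DDIT3 and TRIB3. Over all genes 13.2% fell, 5.85% rose and 19.0% were called in either direction. The median difference of the 9 members was -0.81, against 1.99e-05 for all genes. CEBPA, CEBPD and PPP1R15A did not pass the test. RNA came from whole cultures, so fewer cells with a gene on and less RNA per cell cannot be told apart. In HPB-ALL the same test found 5 of the 9 higher and 0 lower: ATF4, CEBPB, CEBPG, DDIT3 and TRIB3, where 4.96% of all genes rose, 4.38% fell and 9.34% were called. The members' median there was 0.23, and that of all genes -0.02. All SAHM1 arrays lay below all DMSO arrays for 7 members and above them for 0 in KOPT-K1, where 21.6% of all genes lay below and 13.5% above. These 7 were the 6 that fell and PPP1R15A, whose highest SAHM1 array (0.9727) barely cleared its lowest DMSO array (0.9734). In HPB-ALL the SAHM1 arrays lay above for 5 members and below for 0, against 13.4% of all genes above and 15.7% below.

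**Figure D1:**
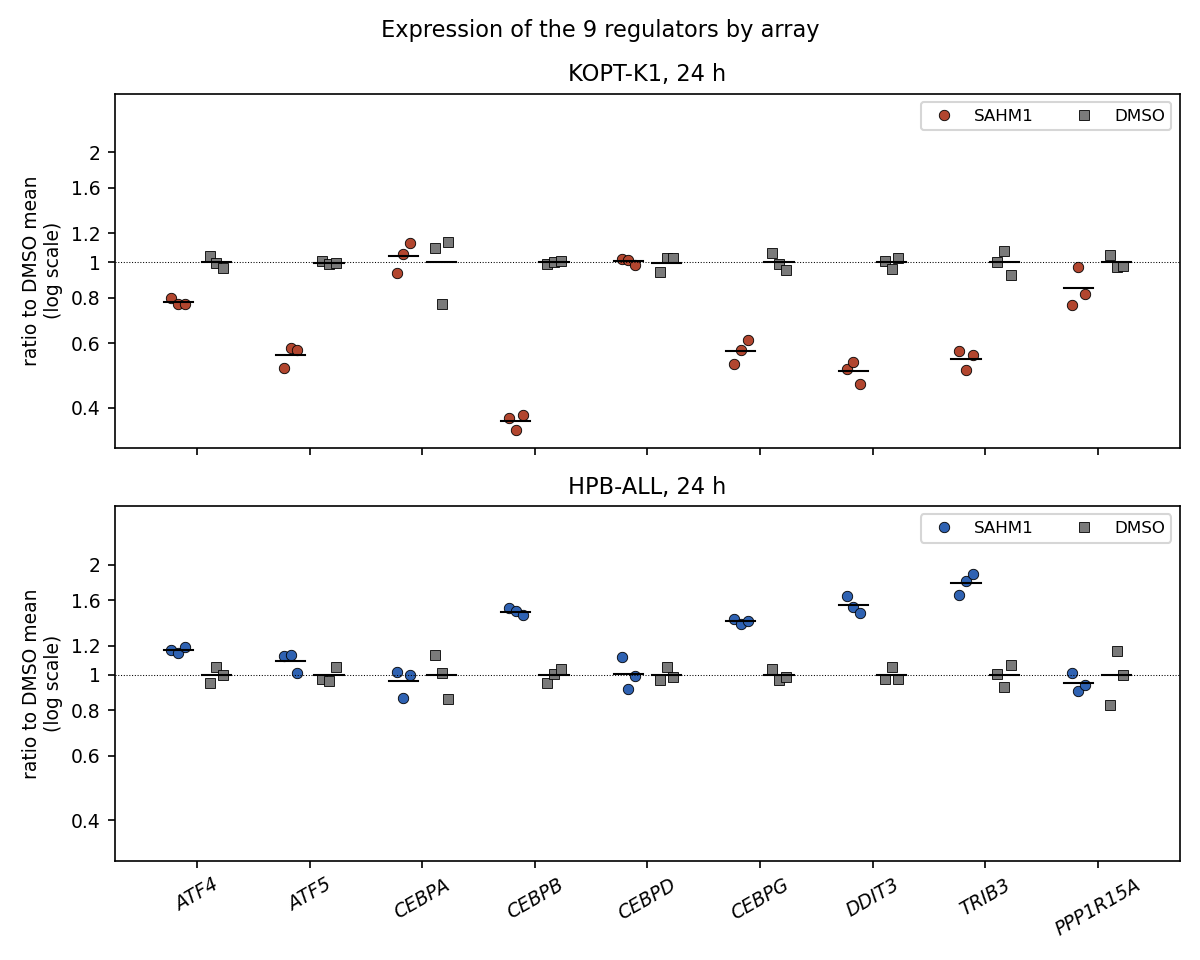
Ratio of each of the 9 genes to the DMSO mean of its line on each array (vertical axis, log scale), for KOPT-K1 above and HPB-ALL below, with circles for SAHM1, squares for DMSO and bars for group means of 3 arrays. CEBPB, DDIT3, TRIB3, CEBPG and ATF4 lie below their DMSO arrays in KOPT-K1 and above them in HPB-ALL, ATF5 is lower in KOPT-K1 with overlapping arrays in HPB-ALL, and CEBPA and CEBPD overlap their controls in both lines.

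ATF4, the activator at the head of this group, had ratios of 0.798, 0.770 and 0.768 on the KOPT-K1 SAHM1 arrays and 1.04, 0.995 and 0.964 on the KOPT-K1 DMSO arrays. All 3 SAHM1 arrays lay below all 3 DMSO arrays. It fell by 0.36 ± 0.06 (1.28-fold, adjusted p = 0.00147). The spread among the SAHM1 cultures was small (0.778 ± 0.0167, SD, n = 3). On the HPB-ALL arrays ATF4 stood at 1.17, 1.15 and 1.19 with SAHM1 and at 0.950, 1.05 and 0.998 with DMSO, again with no overlap. It was higher by 0.23 ± 0.06 (1.17-fold, adjusted p = 0.0299). This was the smallest of the 5 rises and the one nearest to the threshold. It failed the threshold at adjusted p = 0.0783 to 0.0988 when any of 5 of the 6 HPB-ALL arrays was left out, and at 0.202 after quantile normalization, and in the single-probe-set test its adjusted p was 0.0971. ATF4 in KOPT-K1 also failed after quantile normalization (-0.22, adjusted p = 0.214). That step gives every array the same distribution. The interquartile range of the log2 ratios was 0.33 to 0.36 on KOPT-K1 SAHM1 arrays and 0.25 to 0.26 on HPB-ALL SAHM1 arrays. On DMSO arrays it was 0.14 to 0.17. The step thus narrows SAHM1 arrays and widens DMSO arrays by design. Whether this accounts for the smaller differences and lost calls after it was not tested.

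ATF5, a second bZIP factor whose translation rises under stress, had ratios of 0.512, 0.583 and 0.575 with SAHM1 and 1.01, 0.989 and 0.995 with DMSO in KOPT-K1, with no overlap. It fell by 0.85 ± 0.07 (1.80-fold, adjusted p = 1.12e-05). In HPB-ALL it stood at 1.13, 1.14 and 1.01 with SAHM1 and at 0.975, 0.962 and 1.05 with DMSO, so that the groups overlapped. Its difference there was 0.13 ± 0.07, with a 95% confidence interval of -0.03 to 0.28 and an adjusted p of 0.333. A rise of up to 0.28 thus lies inside the interval.

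CEBPB, a frequent partner of ATF4, had the largest fall of the 9 in KOPT-K1. Its ratios were 0.375, 0.347 and 0.381 with SAHM1 and 0.989, 1.00 and 1.01 with DMSO. It fell by 1.44 ± 0.06 (2.72-fold, adjusted p = 2.75e-08) and stood at rank 17 from the lowest of 19775 genes. In HPB-ALL the ratios were 1.52, 1.49 and 1.46 with SAHM1 and 0.953, 1.01 and 1.04 with DMSO, and the groups did not overlap. CEBPB was 1.49-fold higher there (0.58 ± 0.06, adjusted p = 0.000154), at rank 143 from the highest. Quantile normalization kept both calls but gave -0.85 in KOPT-K1. It shrank other KOPT-K1 falls by over 1.5 times as well, to -0.59 for DDIT3, -0.52 for TRIB3, -0.50 for ATF5 and -0.48 for CEBPG, each still called.

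CEBPG, a C/EBP factor without an activation domain of its own that pairs with ATF4 and CEBPB, had ratios of 0.527, 0.574 and 0.613 with SAHM1 and 1.06, 0.991 and 0.952 with DMSO in KOPT-K1. It fell by 0.81 ± 0.07 (1.75-fold, adjusted p = 1.12e-05). In HPB-ALL its ratios were 1.42, 1.38 and 1.41 with SAHM1 and 1.04, 0.969 and 0.988 with DMSO. It was 1.40-fold higher there (0.49 ± 0.07, adjusted p = 0.00101). The arrays of the 2 treatments did not overlap in either line.

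The remaining C/EBP genes stood apart from CEBPB and CEBPG. CEBPA had ratios of 0.936, 1.05 and 1.13 with SAHM1 and 1.09, 0.769 and 1.14 with DMSO in KOPT-K1, and 1.02, 0.867 and 0.996 with SAHM1 and 1.13, 1.01 and 0.859 with DMSO in HPB-ALL. Its differences were 0.07 ± 0.14 (95% confidence interval -0.24 to 0.38) in KOPT-K1 and -0.05 ± 0.14 (-0.36 to 0.26) in HPB-ALL. CEBPA had the widest spread among the KOPT-K1 DMSO arrays of the 9 members (SD 0.202, n = 3). CEBPD had ratios of 1.02, 1.02 and 0.983 with SAHM1 and 0.943, 1.03 and 1.03 with DMSO in KOPT-K1. In HPB-ALL it stood at 1.12, 0.914 and 0.991 with SAHM1 and at 0.967, 1.05 and 0.985 with DMSO. Its differences were 0.01 ± 0.08 in both lines, with intervals of -0.15 to 0.18 in KOPT-K1 and -0.16 to 0.17 in HPB-ALL, so a change of 0.36 or more, the size of the ATF4 fall, lies outside them. For CEBPA the interval in KOPT-K1 does reach 0.38.

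DDIT3, the CHOP factor, had ratios of 0.510, 0.534 and 0.465 with SAHM1 and 1.01, 0.961 and 1.03 with DMSO in KOPT-K1. It fell by 0.99 ± 0.07 (1.99-fold, adjusted p = 2.26e-06). In HPB-ALL its ratios were 1.65, 1.53 and 1.48 with SAHM1 and 0.974, 1.05 and 0.977 with DMSO. It was 1.55-fold higher there (0.64 ± 0.07, adjusted p = 0.000225). The treatments did not overlap in either line.

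TRIB3, which binds ATF4 and DDIT3, had ratios of 0.570, 0.506 and 0.556 with SAHM1 and 1.00, 1.07 and 0.924 with DMSO in KOPT-K1. It fell by 0.88 ± 0.08 (1.84-fold, adjusted p = 2.77e-05). In HPB-ALL its ratios were 1.66, 1.81 and 1.89 with SAHM1 and 1.01, 0.925 and 1.06 with DMSO. It had the largest rise of the 9 members there (0.84 ± 0.08, 1.79-fold, adjusted p = 0.000124), at rank 32 from the highest of 19775 genes. In KOPT-K1 it ranked 81 from the lowest.

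PPP1R15A, which reverses eIF2α phosphorylation, had ratios of 0.765, 0.973 and 0.819 with SAHM1 and 1.05, 0.973 and 0.976 with DMSO in KOPT-K1. Replicate 2 of the SAHM1 cultures stood barely below the lowest DMSO array (0.9727 against 0.9734). The difference was -0.24 ± 0.11 (95% confidence interval -0.49 to 0.01, adjusted p = 0.174). In HPB-ALL the ratios were 1.01, 0.906 and 0.935 with SAHM1 and 0.828, 1.16 and 1.00 with DMSO, and the difference was -0.06 ± 0.11 (-0.31 to 0.19, adjusted p = 0.842). PPP1R15A thus passed the test in neither line as a gene. PPP1R15B, the constitutive counterpart of PPP1R15A, fell by 0.45 ± 0.06 in KOPT-K1 (adjusted p = 0.000571) and had 0.19 ± 0.06 in HPB-ALL (adjusted p = 0.0788).

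The order of the fold changes differed between the lines. In KOPT-K1 the CEBPB arrays lay below those of every other member, and the arrays of DDIT3, TRIB3, ATF5 and CEBPG overlapped in a middle group. ATF4 lay above CEBPG with no overlap, and its range met that of PPP1R15A. In HPB-ALL TRIB3 came first, its lowest SAHM1 array at 1.66 just above the highest DDIT3 array at 1.65. DDIT3 and CEBPB overlapped, CEBPG lay below CEBPB without overlap, and ATF4 lay below CEBPG. These are ratios to each gene's own DMSO mean and give no order of expression levels.

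The 18S signal and the spikes moved with these results, and their part in them was not tested beyond the following values. In HPB-ALL, DMSO replicate 1 had an 18S signal close to that of the SAHM1 arrays, and its ratios were 0.950 for ATF4, 0.953 for CEBPB, 1.04 for CEBPG, 0.974 for DDIT3 and 1.01 for TRIB3. None of these reached the lowest SAHM1 array of its gene. That follows from the lack of overlap already given for these genes and is no separate test of the 18S signal. With the 18S level as a covariate, 2 of the 9 members rose in HPB-ALL: CEBPB (0.67, adjusted p = 0.0192) and TRIB3 (0.89, adjusted p = 0.0270). DDIT3 had 0.65 ± 0.12 (adjusted p = 0.0600), CEBPG 0.43 ± 0.11 (adjusted p = 0.206) and ATF4 0.32 ± 0.09 (adjusted p = 0.265) in that fit. The standard errors of these 3 genes were 0.07, 0.07 and 0.06 without the covariate. The difference of CEBPG was smaller than without it, and those of CEBPB, TRIB3, DDIT3 and ATF4 were not. In all, 52 genes were called in HPB-ALL, against 1846 without the covariate. The 18S level moved with treatment there, so this fit cannot tell the 2 apart. All 6 falls in KOPT-K1 and all 6 differences between the lines passed in the same fit. With the spike level as a covariate, the 6 falls in KOPT-K1 (-1.47 for CEBPB to -0.41 for ATF4, the largest adjusted p 0.0234), the 5 rises in HPB-ALL and the 6 differences all passed, while 709 genes in all were called in KOPT-K1, against 3761. PPP1R15A had -0.49 (adjusted p = 0.0748) in KOPT-K1 in that fit. The spike level moved with treatment in KOPT-K1, so the spike fit cannot tell the 2 apart there or in the difference between the lines.

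The response was then compared between the lines as KOPT-K1 minus HPB-ALL in 1 model over all 12 arrays. The difference passed in 6 of the 9 members and was negative in each, whereas 11.4% of all genes were lower by this test, 5.41% higher and 16.8% called in either direction. It was -2.02 ± 0.08 for CEBPB (95% confidence interval -2.20 to -1.84, adjusted p = 3.00e-08), a gene that stood at rank 17 from the lowest. TRIB3 differed by -1.71 ± 0.11 (-1.96 to -1.47, adjusted p = 1.85e-06) and DDIT3 by -1.63 ± 0.10 (-1.84 to -1.42, adjusted p = 7.88e-07), at ranks 24 and 28. CEBPG followed with -1.30 ± 0.10 (-1.51 to -1.09, adjusted p = 4.99e-06). ATF5 differed by -0.97 ± 0.10 (adjusted p = 8.82e-05), although its HPB-ALL response alone did not pass. ATF4 differed by -0.59 ± 0.08 (adjusted p = 0.000809), which after quantile normalization was -0.42 (adjusted p = 0.0701). The same step gave -1.29 for CEBPB, -1.11 for TRIB3, -1.07 for DDIT3, -0.85 for CEBPG and -0.59 for ATF5, each over 1.5 times smaller and still called.

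Neither CEBPA (0.13 ± 0.20, -0.31 to 0.57), CEBPD (0.00 ± 0.11, -0.23 to 0.24) nor PPP1R15A (-0.18 ± 0.16, -0.53 to 0.17) passed the test of the difference. The PPP1R15A value was -0.0527 without HPB-ALL DMSO replicate 1 and -0.297 without HPB-ALL DMSO replicate 2, uncalled in both. Of the 9 members, 5 fell in KOPT-K1 and rose in HPB-ALL, a combination found in 370 genes or 1.87% of all. The converse, higher in KOPT-K1 and lower in HPB-ALL, held for 0 members and 0.217% of all genes. Calls in the same direction in both lines held for 0 members, against 1.28% of all genes for lower and 0.202% for higher.

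**Figure D2:**
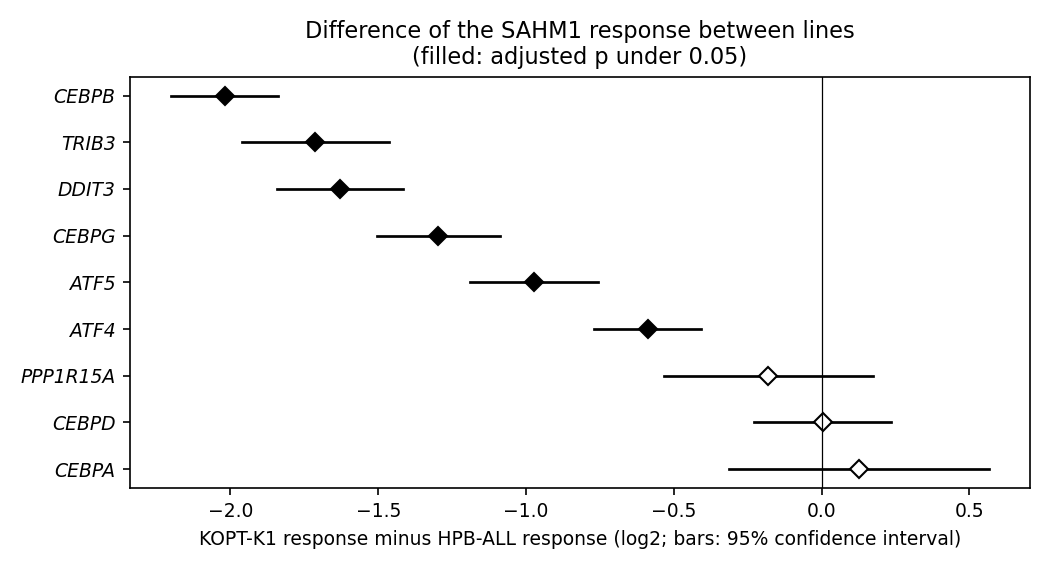
Difference of the SAHM1 response between lines, KOPT-K1 minus HPB-ALL (horizontal axis, log2), for each of the 9 genes, with bars for the 95% confidence interval and filled diamonds for adjusted p under 0.05. The 6 filled genes lie between -2.02 for CEBPB and -0.59 for ATF4, and CEBPA, CEBPD and PPP1R15A have intervals across 0.

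Single probe sets were tested on the whole array. Of the 16, 10 fell and 0 rose in KOPT-K1, where 9.79% of all probe sets fell and 4.77% rose. In HPB-ALL 6 rose and 0 fell, where 3.09% of all rose and 2.06% fell. Those 6 were the probe sets of CEBPB and DDIT3 and both of CEBPG and TRIB3. The difference between lines was negative and passed for 9 probe sets and positive for 0, against 8.50% and 3.22% of all.

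The 4 ATF5 probe sets disagreed in size. In KOPT-K1, 204999_s_at was at 0.225, 0.282 and 0.341 with SAHM1 and 1.08, 1.02 and 0.904 with DMSO, a fall of 1.84 ± 0.13 (adjusted p = 4.41e-06), and 204998_s_at fell by 1.12 ± 0.13 (adjusted p = 0.000147). The other two had -0.28 ± 0.11 (217389_s_at, adjusted p = 0.110) and -0.14 ± 0.11 (230938_x_at, adjusted p = 0.464). The gene value of ATF5 is thus a mean over probe sets that ran from -1.84 to -0.14. In HPB-ALL 204999_s_at stood at 1.51, 1.25 and 1.26 with SAHM1 and at 1.00, 0.984 and 1.01 with DMSO, without overlap (0.41 ± 0.13, adjusted p = 0.0978). The other probe sets overlapped their controls there and were not called. They had -0.01 ± 0.13 (204998_s_at), -0.05 ± 0.11 (217389_s_at) and 0.16 ± 0.11 (230938_x_at). All 4 carry the suffix _s_at or _x_at, which marks probes that can read more than 1 transcript, and which transcripts each reads was not tested.

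Both TRIB3 probe sets passed in both lines but in another order of size. In KOPT-K1, 1555788_a_at fell by 1.01 ± 0.13 and 218145_at fell by 0.75 ± 0.08. In HPB-ALL 218145_at had ratios of 2.03, 2.28 and 2.03 with SAHM1 and 0.994, 0.994 and 1.01 with DMSO (1.08 ± 0.08, adjusted p = 3.24e-05). The other, 1555788_a_at, had 1.35, 1.43 and 1.75 with SAHM1 and 1.02, 0.860 and 1.12 with DMSO (0.60 ± 0.13, adjusted p = 0.0194). Both showed no overlap between treatments.

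For CEBPG the probe sets lay close together. 204203_at had -0.91 ± 0.11 and 225527_at -0.71 ± 0.07 in KOPT-K1, and 0.55 ± 0.11 and 0.43 ± 0.07 in HPB-ALL. PPP1R15A was split: 202014_at was at 0.662, 0.918 and 0.738 with SAHM1 and 0.991, 1.02 and 0.994 with DMSO in KOPT-K1 and fell (-0.39 ± 0.11, adjusted p = 0.0362), while 37028_at had -0.09 ± 0.15 and overlapped its controls. The CEBPD probe sets, 203973_s_at and 213006_at, had 0.06 ± 0.11 and -0.04 ± 0.09 in KOPT-K1 and 0.05 ± 0.11 and -0.03 ± 0.09 in HPB-ALL.

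**Figure D3:**
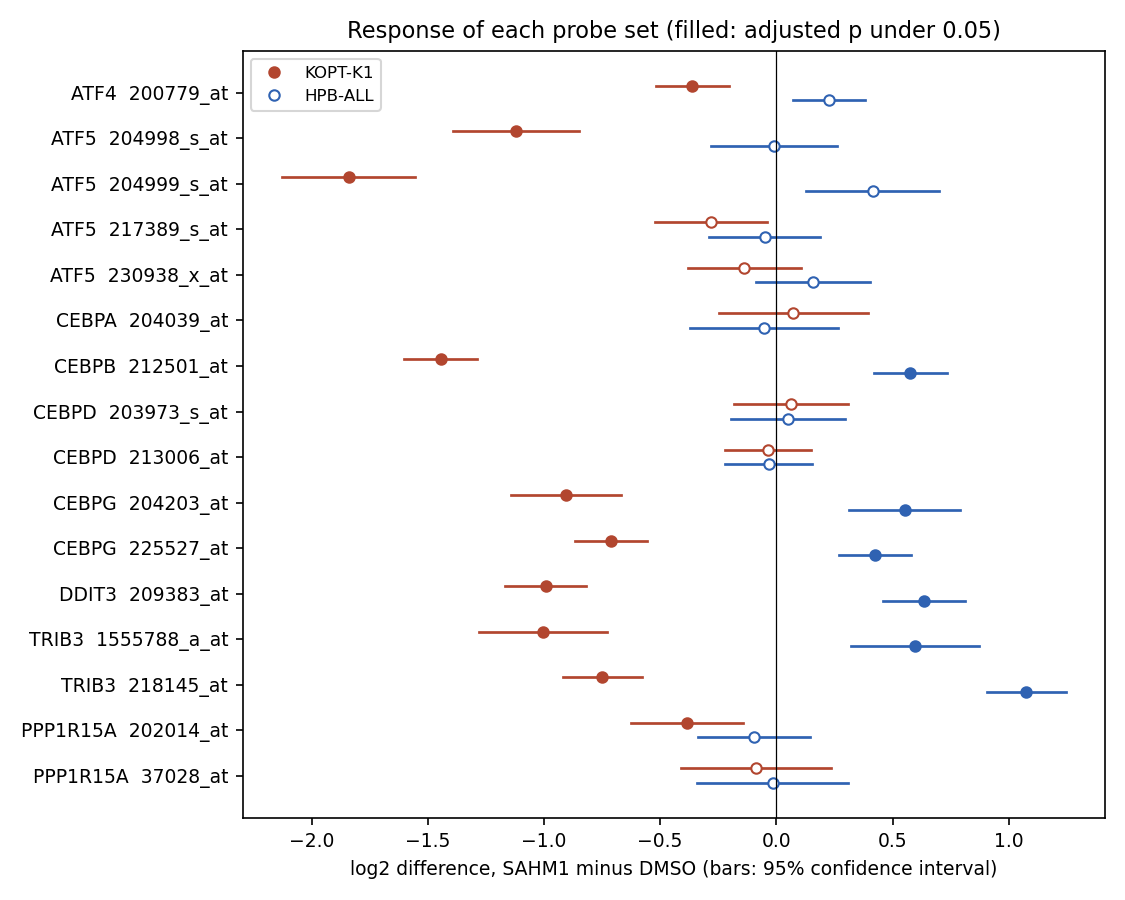
Log2 difference, SAHM1 minus DMSO, of each of the 16 probe sets (rows) in KOPT-K1 and HPB-ALL, with bars for the 95% confidence interval and filled circles for adjusted p under 0.05 over all probe sets. ATF5 probe sets spread from -1.84 to -0.14 in KOPT-K1, and both TRIB3 and both CEBPG probe sets lie on opposite sides of 0 in the lines.

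For each member called in both lines, the 3 other genes with the closest log2 values over the 12 arrays were found among 19766 genes, by the root mean square difference. CEBPB was nearest to SPNS3 (0.145), the amino acid transporter SLC7A5 (0.146) and the asparagine synthetase ASNS (0.154). DDIT3 was nearest to the cysteinyl-tRNA synthetase CARS1 (0.119), the mitochondrial folate enzyme MTHFD2 (0.119) and the amino acid transporter SLC1A4 (0.131). CEBPG was nearest to TMEM154 (0.0945), TMEM267 (0.100) and CLIC4 (0.107). TRIB3 was nearest to SNHG33 (0.109), EDEM1, which helps clear misfolded proteins from the endoplasmic reticulum (0.141), and the recombinase subunit RAG2 (0.177). ATF4 was nearest to KLF6 (0.0365), EIF1 (0.0415) and EXOC1 (0.0511), with small distances beside its own small changes, since its distance from no change at all was 0.217. This measure rewards equal size as well as equal direction.

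The genes that ATF4 is known to drive were counted on a list of amino acid response targets, 38 of 40 measured. Over all genes in KOPT-K1 13.2% fell and 5.85% rose, with a median of 1.99e-05. Of the 38 listed, 29 fell and 0 rose there, with a median of -1.04. Among them were the cystine transporter SLC7A11 (-2.09 ± 0.09), the serine synthesis enzyme PSAT1 (-1.77 ± 0.07), the translation repressor EIF4EBP1 (-1.45 ± 0.07) and the glycyl-tRNA synthetase GARS1 (-1.32 ± 0.06). In HPB-ALL 16 of the list rose and 1 fell, where 4.96% of all genes rose and 4.38% fell. The list's median was 0.16, and that of all genes -0.02. The glutathione-degrading enzyme CHAC1 rose by 1.36 ± 0.13 there and the mitochondrial carboxykinase PCK2 by 0.86 ± 0.09. SLC7A11 rose by 0.85 ± 0.09 and the bZIP factor ATF3 by 0.64 ± 0.06. Both directions at once, lower in KOPT-K1 and higher in HPB-ALL, held for 15 of the 38, against 1.87% of all genes. DDIT4 fell in both lines, as did 1.28% of all genes. The response differed between lines in 28 of the 38, all lower, against 11.4% of all genes lower by this test.

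The step that these regulators answer to was counted on 20 genes for eIF2α kinases, their partners, eIF2, its exchange factor eIF2B and protein phosphatase 1. In KOPT-K1 9 fell and 0 rose (median -0.18), against 13.2% and 5.85% of all genes. In HPB-ALL 1 rose and 3 fell (median -0.01), against 4.96% and 4.38% of all. That 1 rise is near the share over all genes. EIF2S2, the beta subunit of eIF2, fell in KOPT-K1 (-0.89 ± 0.06) and rose in HPB-ALL (0.23 ± 0.06). EIF2S1, the subunit that is phosphorylated, fell by 0.41 ± 0.06 in KOPT-K1, EIF2S3 fell by 0.32 ± 0.06, and PPP1R15B, given above, is a member of the list. In HPB-ALL the falls were in GCN1, which activates the amino acid sensor kinase (-0.35 ± 0.09), the phosphatase subunit PPP1CA (-0.29 ± 0.07) and EIF2B1 (-0.23 ± 0.06). Of the 4 eIF2α kinases, the amino acid sensor EIF2AK4 (-0.43 ± 0.09, adjusted p = 0.00519) and the double-stranded RNA sensor EIF2AK2 (-0.26 ± 0.06, adjusted p = 0.0117) fell in KOPT-K1. The ER stress kinase EIF2AK3 had -0.11 ± 0.06 and the haem-regulated EIF2AK1 -0.10 ± 0.08 there, neither past the test. In HPB-ALL none of the 4 passed, with values of -0.11 for EIF2AK1, -0.01 for EIF2AK2, 0.09 for EIF2AK3 and -0.06 for EIF2AK4.

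Genes related by family or symbol were counted as well. These were the C/EBP gene CEBPE, the tribbles genes TRIB1 and TRIB2, and CEBPZ. CEBPZ is a CCAAT-binding protein that shares the symbol but is no bZIP factor. Of these 4, CEBPZ (-0.41 ± 0.06) and TRIB2 (-0.33 ± 0.07) fell in KOPT-K1 and 0 rose, against 13.2% and 5.85% of all genes. None passed in HPB-ALL, where 4.96% of all rose and 4.38% fell. Of 18 bZIP partners 17 were measured, of which 4 fell and 1 rose in KOPT-K1 (median -0.15), against 13.2% and 5.85% of all genes. In HPB-ALL 2 rose and 1 fell (median 0.03), against 4.96% and 4.38%. The 1 rise in KOPT-K1 and the 1 fall in HPB-ALL are near the share over all genes. JUN rose in both lines (KOPT-K1 0.86 ± 0.10, HPB-ALL 1.74 ± 0.10). ATF3 (-0.50 ± 0.06), NFIL3 (-0.85 ± 0.18) and NFE2L1 (-0.29 ± 0.06) fell in KOPT-K1. BATF3 fell by 0.34 ± 0.08 in HPB-ALL.

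Of 7 measured genes linked to DDIT3, 5 fell and 0 rose in KOPT-K1 (median -0.28), against 13.2% and 5.85% of all genes. In HPB-ALL 2 of them rose and 0 fell (median -0.07), against 4.96% and 4.38% of all. CHAC1, which the ATF4 list holds too, fell by 2.65 ± 0.13 in KOPT-K1, and the co-chaperone DNAJC3 fell by 0.74 ± 0.16, against a rise of 0.64 ± 0.16 in HPB-ALL. ERO1A, an oxidase of the endoplasmic reticulum (-0.43 ± 0.08), and the death receptor TNFRSF10B (-0.28 ± 0.07) fell in KOPT-K1. The other 2 arms of the unfolded protein response, run by XBP1 and ATF6, had 19 of 20 genes measured. Of these 6 fell and 0 rose in KOPT-K1 (median -0.07), against 13.2% and 5.85% of all genes. In HPB-ALL 3 of the 19 rose and 4 fell (median 0.04), against 4.96% and 4.38% of all. EDEM1 fell in KOPT-K1 (-0.74 ± 0.06) and rose in HPB-ALL (0.99 ± 0.06). The chaperone HSPA5 (-0.42 ± 0.09), SDF2L1 (-0.64 ± 0.09) and MANF (-0.28 ± 0.05) fell in HPB-ALL. SEL1L (-0.44 ± 0.08), ATF6 (-0.39 ± 0.07) and ERN1 (-0.34 ± 0.05) fell in KOPT-K1. ATF6 also rose in HPB-ALL (0.24 ± 0.07, adjusted p = 0.0460). With EDEM1 and DNAJC3, which this list holds too, 3 of the 19 were lower in KOPT-K1 and higher in HPB-ALL, against 1.87% of all genes.

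**Figure D4:**
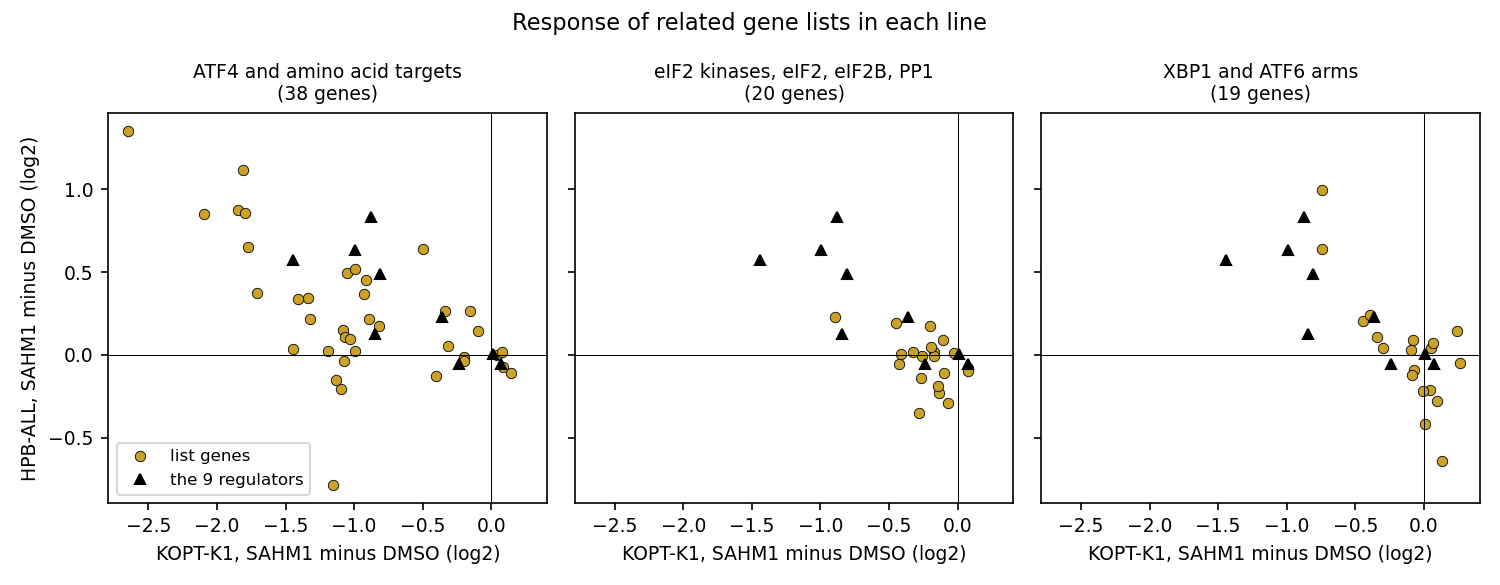
Log2 difference, SAHM1 minus DMSO, in KOPT-K1 (horizontal axis) against HPB-ALL (vertical axis) for the genes of 3 lists (circles), with the 9 regulators as triangles in each panel. ATF4 targets reach from -2.65 in KOPT-K1 with 1.36 in HPB-ALL (CHAC1), the eIF2 genes lie between -0.89 and 0.08 in KOPT-K1, and those of the XBP1 and ATF6 arms between -0.74 and 0.26.

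Genes of other blood cells were counted because CEBPA and CEBPD are myeloid factors. Of 14 myeloid genes, 1 rose (S100A9, 0.27 ± 0.07) and 0 fell in KOPT-K1, and 0 rose and 0 fell in HPB-ALL. Of 6 measured B-cell genes, MS4A1 rose in KOPT-K1 (0.32 ± 0.07) and none changed in HPB-ALL, and 0 of 4 measured erythroid genes were called in either line. Over all genes 5.85% rose and 13.2% fell in KOPT-K1, and 4.96% rose and 4.38% fell in HPB-ALL. On lists this short, these single calls are therefore no result about the cell types. Ratios to DMSO do not show whether such genes are expressed at all.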

How the data were processed

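Per the labels, total RNA of 12 cultures was hybridised to 1 array each. The authors deposited linear ratios: per the submitters' processing notes RMA was used (version not given in the sources used here), and in 54675 of 54675 probe sets the DMSO mean of each line was 1 within 1e-06. Ratios ran from 0.0827 to 6.98, 0 pairs of arrays were identical and 0 sample columns were left unused. Precision is set by the number of arrays rather than by depth, and within a line the standard errors of gene differences had a median of 0.08. The platform annotation gave 41097 probe sets 1 symbol, 1801 several and 11777 none, and 41043 matched a current table by gene ID, with 0 symbols changed. Log2 values, with no pseudocount and no filter on low values, were averaged per gene. limma 3.58.1 in R 4.3.3 (lmFit, eBayes, two-sided) was fitted to 4 groups with 8 residual degrees of freedom, 12.6 after moderation, and Benjamini-Hochberg adjustment ran over 19775 genes or 54675 probe sets with a threshold of 0.05. With 3 arrays against 3, an exact permutation test of 1 gene could not go below 0.10, so none is given. The steps were tested on simulated data.

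All members and their probe sets are named, with up to 4 called genes per list and line by smallest p, and the 3 nearest profiles of each member called in both lines. The HPB-ALL values of PPP1R15B and ATF6, DDIT4 and the eIF2α kinases were added after their values were seen. The members and the 10 lists were chosen with earlier results of these data known. Same-numbered SAHM1 and DMSO cultures did not deviate together (correlations -0.05 to 0.07), so replicate numbers were not treated as pairs. Alternatives covered scaling, probe set choice, the 6 arrays of a line, 18S and spike covariates, array weights, robust moderation, a replicate block and each array left out.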

Additional observations from a re-analysis of the deposited data

Results flagged for a closer look

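The interaction test in limma, KOPT-K1 response minus HPB-ALL response, found a difference between the lines for 6 members. The log2 differences were -2.02 for CEBPB, -1.71 for TRIB3, -1.63 for DDIT3, -1.30 for CEBPG, -0.97 for ATF5 and -0.59 for ATF4. For CEBPB, TRIB3, DDIT3, CEBPG and ATF4 the response was called in opposite directions in the lines, and every SAHM1 array lay beyond every DMSO array in both. The ATF4 rise in HPB-ALL lost its limma call in 11 of 17 alternatives. Among them were the 6 arrays of the line alone (adjusted p = 0.0673) and the omission of _x_at and _s_at probe sets (adjusted p = 0.0597). For ATF5 the HPB-ALL response was not called and the arrays overlapped.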

How the results depend on the processing

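CEBPB and TRIB3 kept their direction and call in both lines and in the difference under every alternative run, and DDIT3 and CEBPG did so in KOPT-K1 and in the difference. The count of members called was 5 or 6 in KOPT-K1 and in the difference under all of them (ATF5 has no probe set left without _x_at and _s_at). In HPB-ALL it was 4 or 5, except for 2 with the 18S covariate and 3 with DMSO replicate 1 as the only control, a setting chosen after seeing the data. Called probe sets fell to 4 in KOPT-K1 and 3 in HPB-ALL after quantile normalization, and to 1 in HPB-ALL with the 18S covariate and 1 with DMSO replicate 1 alone. Over all genes, KOPT-K1 had 136 called after quantile normalization, 709 with the spike covariate and 2498 without _x_at and _s_at probe sets. HPB-ALL had 417 after quantile normalization, 1019 without those probe sets, 52 with 18S, 1030 with spikes, 136 with DMSO replicate 1 alone, and 913 to 2012 with each array left out. The difference had 211 after quantile normalization, 324 with 18S, 251 with spikes and 1051 with DMSO replicate 1 alone. Quantile normalization narrows the SAHM1 arrays by design, as given above, and the causes of all these changes were not tested.

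Signs turned only for CEBPA, CEBPD and PPP1R15A, none of them called. Without _x_at and _s_at probe sets CEBPD had -0.0375 in KOPT-K1, -0.0336 in HPB-ALL and -0.00387 in the difference. With the 18S covariate PPP1R15A had 0.21 in HPB-ALL and CEBPD -0.0418 in the difference. With spikes CEBPA had -0.00537 and CEBPD -0.0668 in KOPT-K1, PPP1R15A 0.0651 in HPB-ALL and CEBPD -0.11 in the difference. Array weights gave CEBPD -0.000604 in the difference, and DMSO replicate 1 alone gave PPP1R15A 0.198 in HPB-ALL and CEBPD -0.0437 in the difference. With each array left out, CEBPA ran from -0.106 to 0.177 in KOPT-K1, -0.159 to 0.0387 in HPB-ALL and -0.0517 to 0.232 in the difference. CEBPD ran from -0.0286 to 0.0332 in KOPT-K1, -0.0703 to 0.0760 in HPB-ALL and -0.0638 to 0.0824 in the difference, and PPP1R15A from -0.183 to 0.0605 in HPB-ALL and -0.297 to -0.0527 in the difference. With DMSO replicate 1 alone, ATF4 (0.30, adjusted p = 0.141) and CEBPG (0.43, adjusted p = 0.0953) were not called in HPB-ALL.

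With the replicate block, 6 members were called in KOPT-K1, 4 in HPB-ALL (ATF4 not, adjusted p = 0.0793) and 6 in the difference. Filters on low values could not be run, because levels are lost in the ratios.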
